A study of Mus musculus with 282 samples.

Results

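Csf1r-expressing progenitors are the granulocyte-monocyte progenitors (GMPs) chosen by their level of Csf1r, the gene of the receptor for macrophage colony-stimulating factor, at 10 CPM or more. CPM is the count of a gene scaled to a fixed total of gene reads per cell. They were 206 of the 238 cells that the authors' deposited cell tables list as passed (86.6%), and the other 32 are called Csf1r-low cells. The deposited stimulus of each cell is TNF or blank, and blank is read here as no cytokine. The response of the Csf1r-expressing cells to TNF was measured within each experiment, and it was then set beside that of the Csf1r-low cells.

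Csf1r is the receptor through which macrophage colony-stimulating factor sustains monocytes and macrophages, and its transcript appears in bone marrow as progenitors turn to the monocyte lineage. GMPs can give rise to granulocytes and to monocytes, so Csf1r marks one side of that choice. TNF is an inflammatory cytokine that binds its receptors on the cell surface and releases the transcription factor NfkB, of which p65 is a subunit, to the nucleus, where it activates inflammatory genes and also the genes of its own inhibitors.

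All cells came from bone marrow of male and female mice, 12 to 19 weeks old, that were homozygous for GFP-p65, a fluorescent p65, and heterozygous for H2BmCherry, a fluorescent histone that marks nuclei. They had been cultured for 8 h under a confocal microscope, and each was picked singly into lysis buffer for Smart-Seq2, which amplifies the polyadenylated RNA of 1 cell. The 282 samples are single wells of 2 experiments, numbered here, with 1 plate in experiment 1 and 2 plates (Plate1 and Plate2) in experiment 2. The deposited tables give each passed cell its stimulus, an NfkB response class and a cell cycle phase. Csf1r-expressing cells were 46 TNF and 11 blank cells in experiment 1, 57 TNF and 17 blank cells on Plate1, and 58 TNF and 17 blank cells on Plate2. Csf1r-low cells were 5 TNF and 5 blank cells in experiment 1, and 12 TNF and 10 blank cells in experiment 2. The labels name no animal or culture for any cell, and no dose of TNF.

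Csf1r-expressing cells held 193116 to 3380416 gene reads each. Medians were 860056 (TNF) and 1060844 (blank) reads in experiment 1, and 1746994 (TNF) and 1780447 (blank) reads in experiment 2. Median detected genes were 10056.5 (TNF) and 9841 (blank) in experiment 1, and 9807 (TNF) and 9903.5 (blank) in experiment 2. Fewer than 8000 genes were detected in 19 of the 206 cells, of which 18 came from Plate2, and 16 of the 19 were TNF cells. Summed over cells, TNF gave 39994216 and 188980188 reads in experiments 1 and 2, against 10394091 and 60857001 reads for blank. Csf1r was the only marker of the label that could be read, because the 55450 gene identifiers of the files matched 0 entries of the reference table. Other markers of monocyte progenitors or of other cell types were not analysed here, so the cells are named by the gene that chose them.

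The choice rests on the Csf1r level itself, so the Csf1r values are given as a description with no test. Of the 32 Csf1r-low cells, 22 had 0 Csf1r reads. The 5 cells just outside the threshold had 5.02, 6.16, 7.38, 8.02 and 9.80 CPM, and the 5 just inside had 10.1, 10.4, 10.6, 10.8 and 11.3 CPM, all from 2 to 15 reads. Few cells lay near the threshold, with 5 between 5 and 10 CPM and 13 between 10 and 20 CPM.

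Csf1r-expressing cells were a larger share of the TNF cells than of the blank cells in both experiments. Experiment 1 had 46 of 51 TNF cells above the threshold (90.2%, exact Clopper-Pearson 95% interval 78.6 to 96.7%) and 11 of 16 blank cells (68.8%, 41.3 to 88.98%). Experiment 2 had 90.6% of TNF cells above it (84.1 to 95.02%) and 34 of 44 blank cells (77.3%, 62.2 to 88.5%). The intervals, which cover counting error only, overlapped in each experiment. With every cell thinned to 458260 reads, which left 24 cells out, the shares were 91.3% of TNF and 66.7% of blank cells in experiment 1, and 90.99% of TNF and 76.2% of blank cells in experiment 2. The plates of experiment 2 differed, with 57 of 59 TNF cells against 17 of 24 blank cells on Plate1, and 58 of 68 TNF cells against 17 of 20 blank cells on Plate2. On Plate2, where 85.3% of TNF cells passed, the shares under both stimuli were thus nearly equal.

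Among cells that passed the threshold, Csf1r spanned about the same range under both stimuli at its lower end and reached higher in TNF cells. The lowest, median and highest values of experiment 1 were 13.6, 298 and 1198 CPM in TNF cells, against 31.5, 201 and 575 CPM in blank cells. Those of experiment 2 were 10.1, 227 and 1240 CPM in TNF cells, against 11.3, 193 and 591 CPM in blank cells. The blank range lay inside the TNF range in both experiments, and in experiment 2 the order of the medians depended on the plate. Plate1 had a median of 318 CPM in TNF cells and 170.9 CPM in blank cells, while Plate2 had 137.4 CPM in TNF cells and 239 CPM in blank cells.

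**Figure D1:**
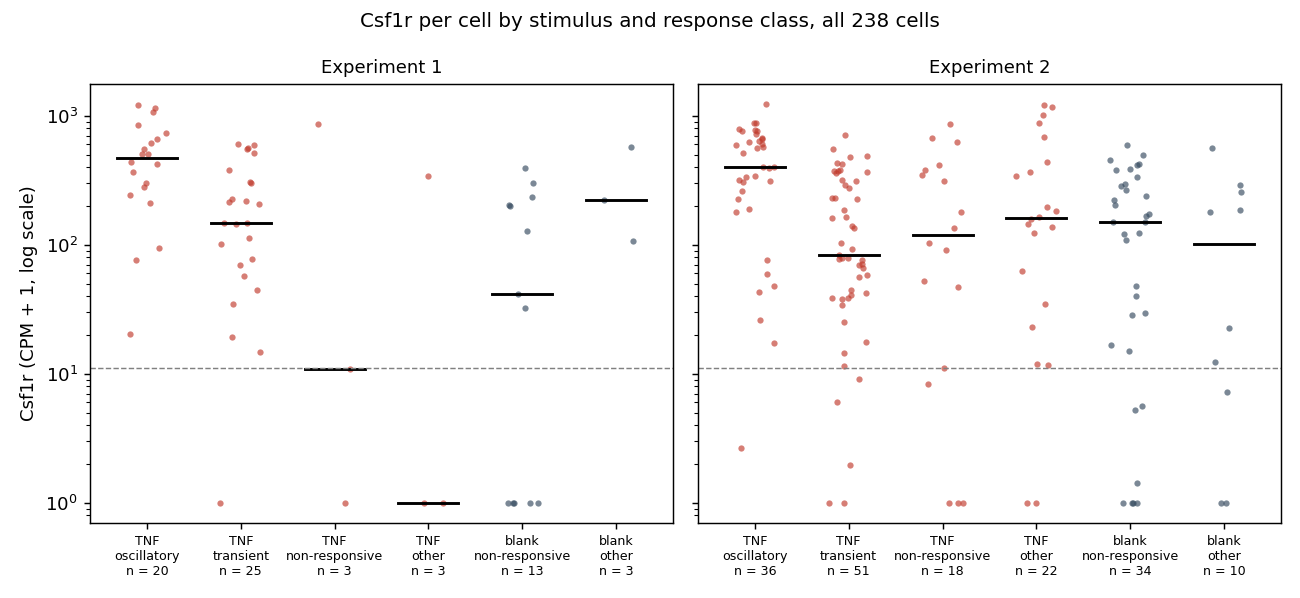
Csf1r level of each cell (CPM + 1, log scale) by stimulus and deposited response class in experiments 1 and 2, with bars at medians and a dashed line at the 10 CPM threshold. All 20 oscillatory TNF cells of experiment 1 and 35 of 36 of experiment 2 lay above the line, and the class "other" holds the outlier, sustained and unclear cells, with oscillatory and transient cells added for blank.

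Among TNF cells, median Csf1r was higher in those that the authors classed as oscillatory in their NfkB response than in transient ones, in both experiments. Oscillatory TNF cells passed the Csf1r threshold in 20 of 20 and 35 of 36 cases. Transient TNF cells passed it in 24 of 25 and 46 of 51 cases, and non-responsive TNF cells in 1 of 3 and 14 of 18 cases. Non-responsive blank cells passed it in 8 of 13 and 27 of 34 cases. Above the threshold, oscillatory TNF cells had a median of 469 CPM (19.3 to 1198) in experiment 1 and 401 CPM (16.5 to 1240) in experiment 2. Transient TNF cells had 177.2 CPM (13.6 to 603) and 117.4 CPM (10.4 to 706), and non-responsive blank cells had 200 and 201 CPM. The ranges of oscillatory and transient TNF cells overlapped. Oscillatory blank cells, found in experiment 2, passed the threshold in 3 of 5 cases with a median of 185.7 CPM, and the 1 non-responsive TNF cell of experiment 1 that passed had 867.5 CPM.

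Median Csf1r also differed by deposited cell cycle phase. Csf1r-expressing TNF cells in S phase had medians of 84.5 CPM (n = 10) and 77.4 CPM (n = 21) in experiments 1 and 2. TNF cells in G1 had 590 CPM (n = 7) and 324 CPM (n = 34), and those in G2M had 305 CPM (n = 29) and 310 CPM (n = 60). Blank cells in S phase had 120 CPM (n = 2) and 107.7 CPM (n = 3), below the medians of blank cells in G1 (201 and 320 CPM) and in G2M (262 and 201 CPM). S phase was thus the lowest of the 3 phases under either stimulus in both experiments, on few blank cells.

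The Csf1r-expressing cells under TNF were mostly of the oscillatory and transient classes, and those under blank were mostly non-responsive. Experiment 1 had 43.5% oscillatory, 52.2% transient and 2.17% non-responsive cells under TNF, against 72.7% non-responsive among blank cells. Experiment 2 had 30.4% oscillatory, 40% transient and 12.2% non-responsive cells under TNF, against 79.4% non-responsive among blank cells. Cell cycle phases were less unequal. G2M held 63.04% of TNF cells and 54.5% of blank cells in experiment 1, and 52.2% of TNF cells and 61.8% of blank cells in experiment 2.

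TNF changed 376 of 8578 genes tested in Csf1r-expressing cells (4.38%), and most of them rose. For the test, reads were summed over the cells of each experiment and stimulus, and the 4 sums were fitted with the experiment as a term. With edgeR's quasi-likelihood test and a Benjamini-Hochberg adjusted p under 0.05, 306 genes rose with TNF (3.57% of those tested) and 70 fell (0.816%). Without adjustment, 1185 genes had p under 0.05. The 376 genes moved in the same direction in both experiments, as did 5022 of all 8578 genes. None of the 376 turned round in an alternative that could test it. The fit that called them used both experiments, which favours genes of 1 direction, and the alternatives drew on the same cells. These counts are thus a description and no replication. The design has 1 residual degree of freedom per gene, and edgeR added 21.1 prior degrees of freedom from the other genes. These p-values thus rest mostly on a spread between 2 experiments that is shared across genes, and little on the gene's own. The share of tested genes called was 0.572% with edgeR's default low-count filter, 1.55% without Plate1, 2.73% without Plate2, 0.907% in experiment 2 alone with sums per plate, and 0 both without the experiment term and with spike-in factors. Csf1r itself is among the 306, with 395.2 and 349.9 CPM in the TNF sums and 222.1 and 246.2 CPM in the blank sums of experiments 1 and 2 (identifier ENSMUSG00000024621), and its call is not read as a result because it chose the cells.

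Over all called genes, the rises were larger than the falls. The 306 genes that rose had a median log2 fold change of 1.54 (0.66 to 10.88), with 248 at 2-fold or more and 100 at 4-fold or more. The 70 genes that fell had a median of -1.07 (-3.10 to -0.65), with 38 at 2-fold or more and 6 at 4-fold or more. Over all genes tested the median was 0.00, and 433 genes reached 2-fold and 110 reached 4-fold in either direction. In 299 of the 306 genes that rose, no single cell gave over 50% of the reads of the higher stimulus in either experiment. The same held for 8236 of all 8578 genes, but for a smaller share of the falls, 55 of 70. The median share of the highest cell was 31.6% and 11.4% for the falls in experiments 1 and 2, against 16.8% and 6.82% for all genes. The median gene that rose had a read in 93.5% and 90.9% of TNF cells of experiments 1 and 2, against 100% and 94.8% of cells of the higher stimulus for the median of all genes. A gene needed 10 CPM in 2 of the 4 sums to be tested, and 67 of the 306 (21.9%) and 8 of the 70 (11.4%) had both sums of the lower stimulus under 10 CPM, against 1.84% of all genes. These genes met the minimum only through the stimulus in which they were higher, so they had to differ and their calls are not read as support. They and Csf1r were not taken out of the medians, ranges and counts above. The sizes of rises and falls are thus a description.

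The direction of the called genes was also read within each of the 3 plates, where TNF and blank cells stood side by side. Of the 306 genes that rose, 291 (95.1%) were higher with TNF on all 3 plates, against 13.9% of all genes tested. Of the 70 that fell, 64 (91.4%) were lower with TNF on all 3, against 24.5% of all genes tested. The median log2 fold change of the 306 was 1.75 on the plate of experiment 1, 1.39 on Plate1 and 1.16 on Plate2, and that of the 70 was -1.30, -0.91 and -0.91. The plate of experiment 1 is the whole of its sums, and the plates of experiment 2 are parts of theirs. These sums chose the genes, so the shares describe them and are no separate test.

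**Figure D2:**
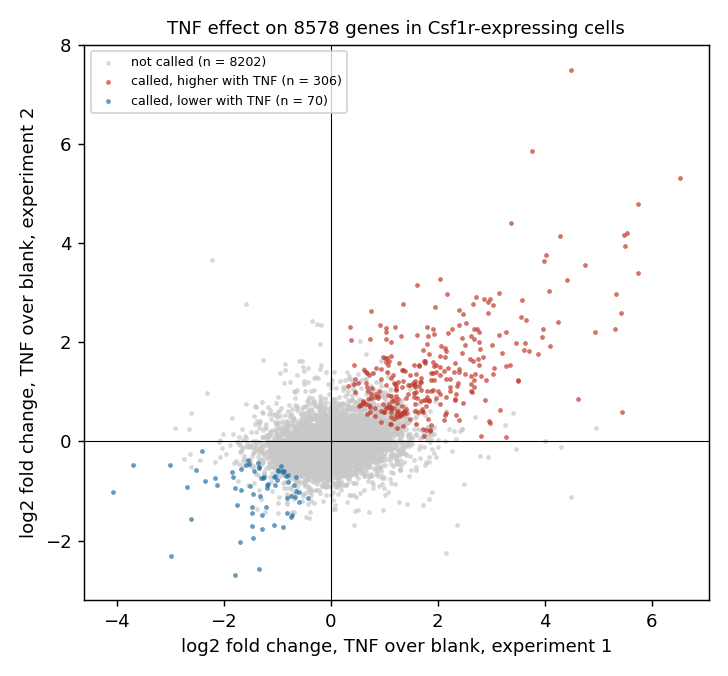
Log2 fold change of TNF over blank (sums of Csf1r-expressing cells, log2 of CPM + 1) in experiment 1 (x) and experiment 2 (y), 1 point per gene. The 306 genes called higher with TNF lie at the upper right and the 70 called lower lie in the lower left, around the cloud of genes that were not called.

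Most genes chosen in 1 experiment moved the same way in the other. A list of 73 genes was chosen in experiment 2 as at least 4-fold higher in TNF than in blank sums of Csf1r-expressing cells, at 10 CPM or more in TNF and with no cell above 50% of the reads. Of these 73, 69 (94.5%) were also higher with TNF in experiment 1, 63 of them by 2-fold or more, with a median log2 fold change of 2.68. Of all 8578 genes, 50.9% were higher there and 6.71% by 2-fold or more. A longer list came from the same bounds in experiment 1, and 94.8% of it was higher with TNF in experiment 2, 97 genes (71.9%) by 2-fold or more, with a median log2 fold change of 1.54. Of all genes, 38.8% were higher there and 3.25% by 2-fold or more. Both lists came from the tested genes, whose low-count minimum counted the sums of both experiments. A list gene with both blank sums under 10 CPM thus had to reach 10 CPM in both TNF sums. The direction of such a gene in the other experiment was set in advance. These genes were not taken out of the lists, so the shares are a description. Genes that fell by 4-fold or more were few, and the same limit holds for those with both TNF sums under 10 CPM. The 4 chosen in experiment 2 were all lower in experiment 1 (median log2 fold change -1.75), and 8 of the 9 chosen in experiment 1 were lower in experiment 2 (median -0.42), none by 2-fold.

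Among single identifiers, the 2 largest rises and the 2 largest falls among called genes with no cell above 50% of the reads are described here. The files and the reference give no names for these identifiers, so their roles are not stated. The largest rise was that of ENSMUSG00000026981, which was at or near 0 in Csf1r-expressing blank cells. Its level in the sums of experiment 1 was 12.6 CPM (TNF) and 0 CPM (blank), and in those of experiment 2 it was 59.5 CPM (TNF) and 0.033 CPM (blank). Reads were found in 24 of 46 TNF cells of experiment 1, 32 of 57 of Plate1 and 37 of 58 of Plate2, against 0 of 11, 1 of 17 and 0 of 17 blank cells. The fitted log2 fold change of ENSMUSG00000026981 was 10.88 ± 0.74 (SE, edgeR adjusted p = 1.07e-09), and it depends on the prior count because blank cells were at or near 0. It was 5.90 at a Csf1r threshold of 1 CPM and 4.64 with cells weighted equally in limma, on the log2(CPM + 1) scale. The gene met the low-count minimum only through its TNF sums, so its p is not read as support. Against a floor of 3 reads over the blank sum, ENSMUSG00000026981 was at least 43.7-fold higher with TNF in experiment 1. In experiment 2 the ratio was 1809-fold with a counting interval of 501 to 14940, from 11237 (TNF) and 2 (blank) reads.

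ENSMUSG00000026981 was higher in TNF than in blank cells on every plate. Its level was 27.3 CPM in TNF and 0.070 CPM in blank cells of Plate1, and 101.03 CPM in TNF and 0 CPM in blank cells of Plate2. The highest TNF cell gave 34.1% and 48.2% of its reads in experiments 1 and 2. Without the 2 highest TNF cells, ENSMUSG00000026981 was still at 6.64 and 26.9 CPM in the TNF sums.

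The second rise rested on few cells. ENSMUSG00000027073 had 21.6 CPM (TNF) and 0 CPM (blank) in the sums of experiment 1, and 514 CPM (TNF) and 1.84 CPM (blank) in those of experiment 2. It was read in 15 of 46 TNF cells of experiment 1 and 38 of 57 of Plate1, against 0 of 11 and 4 of 17 blank cells. Its fitted log2 fold change was 8.27 ± 0.34 (SE, edgeR adjusted p = 2.04e-13), and it too met the low-count minimum only through its TNF sums. Among TNF cells of experiment 2, 2 cells held 92.5% of the reads of ENSMUSG00000027073, and the TNF sum without them was 39.4 CPM. The plates also differed, with 911 CPM in TNF and 0.835 CPM in blank cells on Plate1, but 0.788 CPM in TNF and 2.74 CPM in blank cells on Plate2. The rise of ENSMUSG00000027073 thus held on 2 of the 3 plates and was turned round on Plate2, where it was read in 8 of 58 TNF cells and 3 of 17 blank cells. Without Plate1, with sums per plate, or with experiment 2 alone, ENSMUSG00000027073 fell under the low-count filter and had no test.

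The largest fall was that of ENSMUSG00000009876, a gene of low level throughout. Its level was 3.85 CPM (TNF) and 11.4 CPM (blank) in the sums of experiment 1, and 0.863 CPM (TNF) and 10.1 CPM (blank) in those of experiment 2. The highest blank cell gave 48.3% and 27.6% of the blank reads in experiments 1 and 2. Without the highest cell of each stimulus, the log2 fold change from the sums was -0.80 in experiment 1 and -2.29 in experiment 2. With all cells it was -1.35 and -2.58. The share of cells with a read was not lower with TNF in experiment 1, at 25 of 46 TNF cells and 5 of 11 blank cells. It was read in 21 of 57 TNF cells and 9 of 17 blank cells of Plate1, and in 4 of 58 TNF cells and 9 of 17 blank cells of Plate2. The log2 fold change of ENSMUSG00000009876 was -2.53 ± 0.56 (SE, edgeR adjusted p = 0.0063), but it met the low-count minimum only through its blank sums, so this p is not read as support. Both plates of experiment 2 showed the lower level, with 1.37 CPM in TNF and 10.9 CPM in blank cells on Plate1, and 0.206 CPM in TNF and 9.46 CPM in blank cells on Plate2. It was under the minimum and had no test in 5 alternatives, which were sums per plate, a Csf1r threshold of 1 CPM, Plate1 left out, experiment 2 alone and cells weighted equally. The call was lost in 6 of 10 alternatives with a test, Plate2 left out among them (edgeR adjusted p = 0.084), and the adjusted p of the alternatives ran from 0.004 to 0.998.

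The second fall, ENSMUSG00000048249, was split by plate. Its level was 10.9 CPM (TNF) and 153.2 CPM (blank) in the sums of experiment 1. The log2 fold change from the sums of 1 experiment was -3.70 in experiment 1 and -0.47 in experiment 2. Its log2 fold change was -2.07 ± 0.48 (SE, edgeR adjusted p = 0.011). The call was lost in 12 of 15 alternatives, with an adjusted p of 0.62 in DESeq2 and of 0.654 in edgeR without Plate1, in a range from 4.2e-13 to 1. On Plate1 it had 34.003 CPM in TNF and 154.2 CPM in blank cells, while on Plate2 it had 234 CPM in TNF and 180 CPM in blank cells. All 58 TNF cells of Plate2 had reads of ENSMUSG00000048249, with 27.6 CPM at the lowest, against 39 of 57 TNF cells of Plate1 and 31 of 46 TNF cells of experiment 1. The 2 plates of 1 experiment thus went in opposite directions for ENSMUSG00000048249, and the part of the plate in the fall was not tested.

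**Figure D3:**
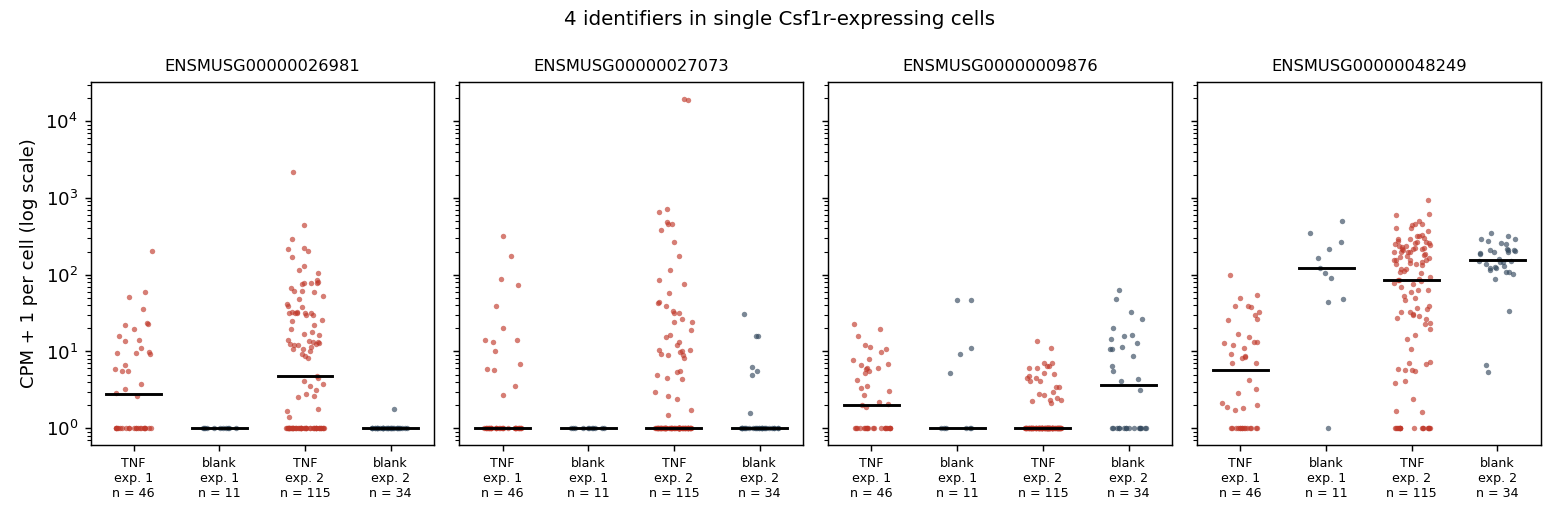
Level per Csf1r-expressing cell (CPM + 1, log scale, cells without a read at 1) of the 4 identifiers described, in TNF and blank cells of experiments 1 and 2, with bars at medians. ENSMUSG00000026981 was read in 24 of 46 TNF cells of experiment 1 and 0 of 11 blank cells, while 2 TNF cells of experiment 2 stand far above all others in ENSMUSG00000027073.

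How many TNF-induced genes a single cell had on was counted with lists that the cell's own experiment had not chosen. That experiment did take part in the low-count minimum, which favours list genes that reach 10 CPM in its TNF sum. Cells of experiment 1 were read for the 73 genes chosen in experiment 2, and cells of experiment 2 for the longer list from experiment 1. A gene counted as on at 10 CPM or more, the count is given as a percent of the list, and Csf1r is in neither list. The lowest, median and highest percent of genes on in experiment 1 was 17.8, 49.3 and 86.3% in TNF cells and 12.3, 19.2 and 41.1% in blank cells. Of the 46 TNF cells there, 33 lay above the highest blank cell and 45 above the blank median. The values of experiment 2 were 26.7, 60% and 85.9% in TNF cells and 14.8, 37.4 and 65.2% in blank cells. There 39.1% of TNF cells lay above the highest blank cell and 92.2% above the blank median. Many of these genes were thus on in blank cells too, and the groups overlapped in both experiments. The medians were 63.7% (TNF) and 34.1% (blank) on Plate1 and 57.04% (TNF) and 45.9% (blank) on Plate2, so the gap was narrower on Plate2.

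Oscillatory TNF cells had a higher median share of genes on than transient TNF cells in both experiments. Oscillatory TNF cells had a median of 63.01% in experiment 1 and 71.9% in experiment 2. Transient TNF cells had 44.5% and 54.1%, and non-responsive blank cells had 18.5% and 37.04%. The 14 non-responsive TNF cells of experiment 2 had a median of 58.1% (26.7 to 78.5%). This median lay inside the range of the transient TNF cells (31.1 to 78.5%). It was also above the highest of the 27 non-responsive blank cells, which was at 56.3%. The 1 non-responsive TNF cell of experiment 1 had 69.9% of the genes on. Cells that the authors classed as non-responsive in NfkB under TNF thus mostly had shares of genes on among those of the responding classes. The lowest of them in experiment 2, at 26.7%, lay below the lowest transient TNF cell.

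**Figure D4:**
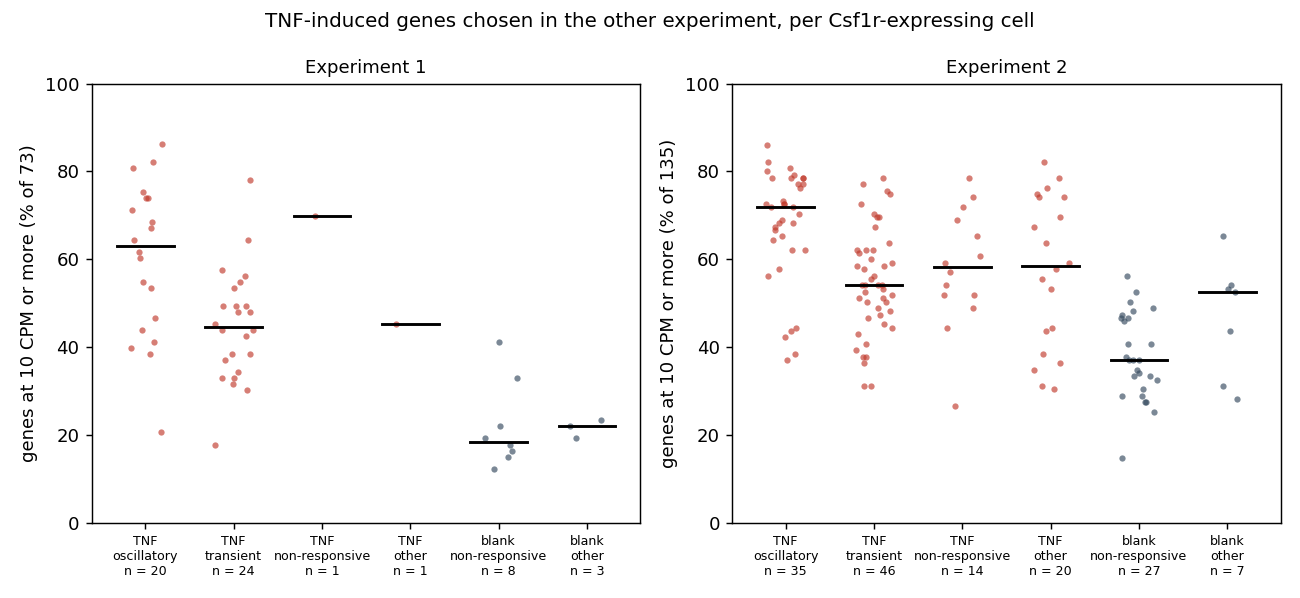
Percent of TNF-induced genes at 10 CPM or more in each Csf1r-expressing cell, by stimulus and response class, for lists chosen in the other experiment, with bars at medians. Oscillatory TNF cells have medians of 63.01% and 71.9% in experiments 1 and 2, and non-responsive blank cells have 18.5% and 37.04%.

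TNF cells with more Csf1r tended to have more of these genes on. TNF cells of experiment 1 with Csf1r at 100 CPM or more had a median of 54.8% of the genes on (31.5 to 86.3%, n = 36), against 39.04% (17.8 to 49.3%, n = 10) in TNF cells with 10 to under 100 CPM. In experiment 2 the values were 68.5% (31.1 to 85.9%, n = 78) at the higher Csf1r level and 46.7% (26.7 to 62.2%, n = 37) at the lower. The Spearman coefficient between Csf1r and the share of genes on, over cells, was 0.75 in the 46 TNF cells of experiment 1 and 0.83 in the TNF cells of experiment 2. It was 0.82 in the 99 of the TNF cells of experiment 2 with 8000 or more detected genes. Cells of 1 experiment share library preparation and are not replicates, so the coefficient is a description. Their depth differed, with 193116 to 1640537 reads in TNF cells of experiment 1 and 241824 to 3380416 in those of experiment 2. The number of detected genes itself had a Spearman coefficient of -0.07 and 0.29 with the share of genes on. The TNF sums that chose the lists held more Csf1r than the blank sums in both experiments. Genes that go with Csf1r could thus enter the lists more easily, and the part of this in the relation was not tested.

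The same ordering appeared within classes and, in 1 experiment, without TNF. The Spearman coefficient was 0.86 and 0.70 in oscillatory TNF cells (n = 20 and 35), and 0.47 and 0.78 in transient TNF cells (n = 24 and 46) of experiments 1 and 2. In the 14 non-responsive TNF cells of experiment 2 it was 0.86. Among blank cells it was -0.04 in experiment 1 (n = 11) and 0.64 in experiment 2 (n = 34). Blank cells of experiment 2 with Csf1r at 100 CPM or more had a median of 44.8% of the genes on (14.8 to 65.2%, n = 26), against 31.9% (25.2 to 40.7%, n = 8) at 10 to under 100 CPM. Cell cycle phase moved with both measures. TNF cells in S phase, which had the lowest Csf1r, had medians of 46.6% (n = 10) and 51.9% (n = 21) of the genes on. TNF cells in G1 had 61.6% (n = 7) and 66.3% (n = 34), and those in G2M had 49.3% (n = 29) and 62.2% (n = 60). The part of the phase in the relation was not tested.

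**Figure D5:**
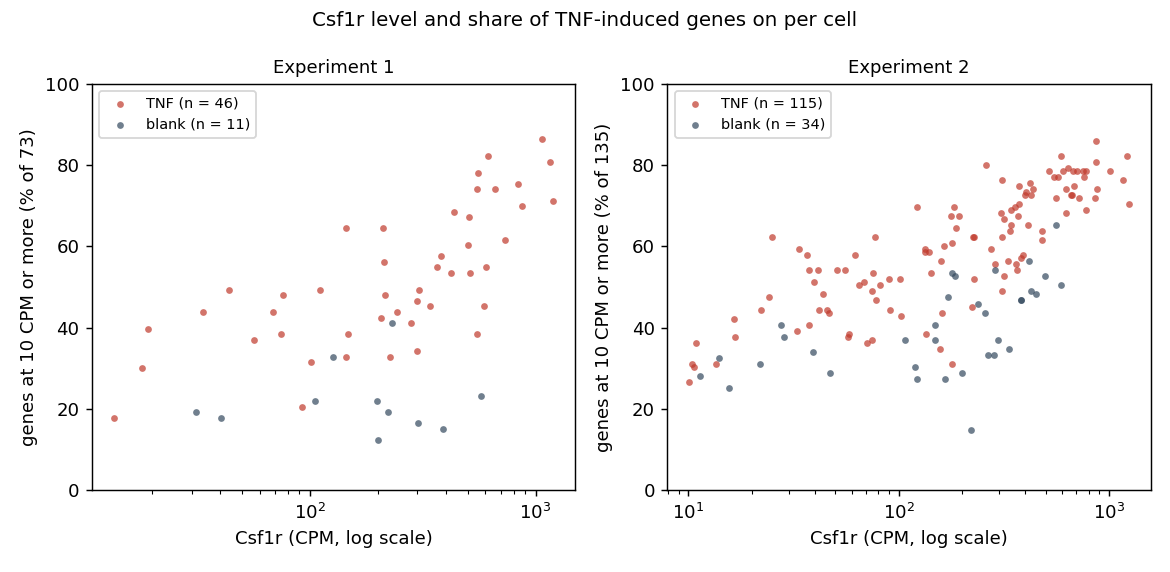
Csf1r level (CPM, log scale) and percent of TNF-induced genes at 10 CPM or more in each Csf1r-expressing cell, for TNF and blank cells of experiments 1 and 2. The share of genes on is higher in TNF cells with more Csf1r, with a Spearman coefficient of 0.75 and 0.83, and most blank cells lie below TNF cells of like Csf1r level.

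The Csf1r-low cells were set beside the Csf1r-expressing cells to see where the TNF response differed. They are few, and their sums of 5015100 and 11543932 reads for TNF and 4814454 and 16248452 reads for blank are shallower. In experiment 2, Csf1r-low TNF cells had a median of 5383 detected genes and 6.59% of reads from spike-ins, against 9844.5 genes and 1.05% in Csf1r-low blank cells, and the part of this difference in what follows was not tested. The genes called in Csf1r-expressing cells were then read in the Csf1r-low sums. Of the 306 that rose, 57.8% were higher with TNF in Csf1r-low cells of both experiments, against 16.9% of all genes tested. Of the 70 that fell, 43 (61.4%) were lower in both, against 33.8% of all genes tested. The median log2 fold change of the 306 was 0.58 and 0.73 in the Csf1r-low sums of experiments 1 and 2, against 1.75 and 1.24 in the Csf1r-expressing sums that chose them.

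No gene passed the test for a different response to TNF in Csf1r-expressing and Csf1r-low cells. The test was the interaction of stimulus and Csf1r class over 8 sums, with 3 residual degrees of freedom. edgeR called 0 of 8419 genes (0%), with a smallest adjusted p of 0.825 and 382 genes at an unadjusted p under 0.05, while DESeq2 called 32 of the same genes, 14 with a positive and 18 with a negative difference, Csf1r-expressing minus Csf1r-low. Among the called genes that could be tested here, the median difference in log2 fold change, Csf1r-expressing minus Csf1r-low, was 0.46 over 255 genes that rose and -0.58 over 63 that fell. These medians favour the cells that chose the genes and carry no test. For ENSMUSG00000048249 the difference was -1.41 (95% interval -4.11 to 1.30, edgeR adjusted p = 0.97), an interval that leaves room for a difference of several fold either way. ENSMUSG00000026981 was too low for this fit and was tested with the default low-count filter, which gave a difference of 8.01 (3.06 to 12.96, edgeR adjusted p = 0.959). It was read in 1 of 5 and 2 of 12 Csf1r-low TNF cells, against 0 of 5 and 2 of 10 Csf1r-low blank cells. Its level in the Csf1r-low sums of experiment 1 was 9.37 CPM (TNF), from 47 reads of 1 cell, and 0 CPM (blank). In those of experiment 2 it was 7.54 CPM (TNF) and 5.54 CPM (blank), the blank value from 90 reads. The log2 fold changes from the sums were 3.37 and 0.38 in Csf1r-low cells of experiments 1 and 2, against 3.77 and 5.87 in Csf1r-expressing cells. The 2 classes were thus alike in experiment 1, on 1 Csf1r-low cell. With the same filter the difference was 7.74 (5.88 to 9.60, edgeR adjusted p = 0.337) for ENSMUSG00000027073 and 1.33 (-1.97 to 4.63, edgeR adjusted p = 0.968) for ENSMUSG00000009876. ENSMUSG00000027073 had 0 reads in Csf1r-low cells of experiment 1. In experiment 2 it had 51 reads in 1 of 12 Csf1r-low TNF cells and 53 reads in 2 of 10 Csf1r-low blank cells. In Csf1r-expressing TNF cells of experiment 2, 2 cells held 92.5% of its reads. The 4 identifiers were chosen by their change in Csf1r-expressing cells, which favours a difference.

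Counted per cell, the median share of genes on in Csf1r-low TNF cells lay between those of Csf1r-expressing TNF cells and Csf1r-low blank cells. Csf1r-low cells of experiment 1 had a median of 26.03% under TNF (19.2 to 50.7%, n = 5) and 15.1% under blank (10.96 to 21.9%, n = 5). Csf1r-low cells of experiment 2 had 35.9% under TNF (21.5 to 60%, n = 12) and 30.7% under blank (23.7 to 40%, n = 10). Csf1r-expressing TNF cells had 49.3% and 60%. Only 4 of the 12 Csf1r-low TNF cells of experiment 2 had 8000 or more detected genes, and these had a median of 42.96% (36.3 to 60%). The 99 Csf1r-expressing TNF cells of experiment 2 that passed the same minimum had 63.7% (31.1 to 85.9%). Both lists were chosen in Csf1r-expressing cells, so genes induced only in Csf1r-low cells could not enter them. The lists favour the cells that chose them, and the lower share in Csf1r-low TNF cells carries no test.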

How the data were processed

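The authors deposited raw gene-level read counts by Ensembl mouse identifier. SAMtools, featureCounts and Subread 1.5.0 are listed in the submitters' processing notes. No genome build, gene annotation or strand setting is given in the sources used here, so overlapping and antisense genes were not told apart. Stimulus, response class and phase per cell come from the authors' deposited cell tables, which also hold phase scores as fractions that sum to 1 per cell. The making of these classes, phases and fractions is not described in the sources used here. The 92 spike-in features stayed out of library sizes, the 357 count columns that match no sample were not used, and the 44 samples outside the cell tables were not analysed here.

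The members, lists and tests were chosen with earlier results of these data known. Each sample is 1 cell, so the experiment was the replicate (n = 2); the labels name no separate animals or cultures, and p-values measure a spread that may be technical. Reads lack molecular identifiers, so intervals cover counting error only. Counts were summed per experiment, stimulus and Csf1r class, kept at 10 CPM or more in 2 of 4 sums (4 of 8 for the difference between classes), scaled by TMM and tested two-sided with edgeR 4.0.16 in R 4.3.3. Fold changes within 1 experiment or plate used log2(CPM + 1), which understates changes of low genes. Standard errors are the absolute log2 fold change over the square root of F. Fits were run on simulated data with known changes, and a minimum recovery was required only for TNF against blank. Recovery for the difference between classes is not given here. Alternatives were DESeq2 1.42.0, limma 3.58.1 with cells weighted equally, other factors, filters, Csf1r thresholds and sums. Named genes were the largest changes among called genes of 1 direction in both experiments with no cell above 50% of reads, limited afterwards to 2 rising and 2 falling identifiers, since 0 of 55450 identifiers matched a name. The 20 gene lists and 8 marker lists, which use symbols, could thus not be read and are not analysed here, and predicted or sex-linked genes could not be left out. No sequence is shown for the same reason.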

Additional observations from a re-analysis of the deposited data

How the results depend on the processing

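All of the 376 called genes that an alternative could test kept their direction in it, though the alternatives drew on the same cells. The share of tested genes called, 4.38%, was 4.62% with relative log expression factors, 4.33% with DESeq2 and 3.69% in cells with 8000 or more detected genes. It was 0.572% with edgeR's default low-count filter (82 genes rose, 3 fell), 2.29% with no filter beyond 1 read (585 genes), 2.17% with sums per plate, and 2.83% with cells weighted equally in limma (242 genes). It was 2.42%, 1.36% and 2.44% at Csf1r thresholds of 1, 50 and 100 CPM, 1.55% without Plate1 and 2.73% without Plate2. It was 0 without the experiment term (400 genes at an unadjusted p under 0.05) and 0 with spike-in factors (43 at an unadjusted p under 0.05), an alternative chosen after seeing the data, which moved the median log2 fold change of all genes to 0.55. Leaving out experiment 1 gave 0.907% (73 genes rose, 3 fell) with sums per plate of experiment 2, also chosen after seeing the data, and without experiment 2 no residual degrees of freedom remain. The cause of these differences was not tested. The difference between Csf1r classes gave 0.38% with DESeq2 (32 genes), 0.023% with no filter (6 genes), and 0 in the other alternatives run. The share of cells that express Csf1r was 70.6% of TNF cells of experiment 1 at 100 CPM, and in experiment 2 74.02% of TNF and 59.1% of blank cells at 50 CPM, and 61.4% of TNF and 59.1% of blank cells at 100 CPM. At 100 CPM, 30.8% of Csf1r-expressing TNF cells of experiment 2 were transient. Of the alternatives for the 4 named identifiers, 30 kept the call, 22 lost it and 8 from 1 experiment had no test, none with a change of direction. TNF and blank cells were compared within experiment by the experiment term and within plate by the sums per plate. By replicate number, no paired analysis was possible because these numbers only name wells. Precision is limited by 2 experiments and by 11 blank Csf1r-expressing cells in experiment 1.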
